A study of Mus musculus with 4 samples.

Results

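Variant Polycomb repressive complex 1 (PRC1) was examined through 10 genes, taken by symbol from the 25239 genes of the count tables: Rnf2, Ring1, Rybp, Pcgf1, Pcgf6, Kdm2b, Mga, Max, E2f6 and L3mbtl2. All 10 were found, with 65 to 5687 counts in a library, and all 10 passed the filter on low counts. The cells were mouse embryonic stem cells of genotype Ogt fl/fl, in which loxP sites flank the gene of O-GlcNAc transferase, the enzyme that attaches N-acetylglucosamine to serine and threonine of nuclear and cytoplasmic proteins. The Ogt iKO (induced knockout) group held 2 libraries of polyadenylated RNA from cells grown for 6 days with 4-OHT (4-hydroxytamoxifen, which switches on tamoxifen-dependent recombinases), and the control group held 2 libraries from the same cells grown for 6 days without it. Both groups were cultured with LIF and serum replacement on mitomycin C-treated fibroblast feeders and sorted as viable cells away from the feeders. The labels give CD90.2 as the mark of the stem cells and CD326 as the means to exclude feeders, the reverse of how these antigens are usually used, so the gate that was applied is uncertain. Cells positive for yellow fluorescent protein were selected in the treated group alone, so that selection, 4-OHT itself and loss of Ogt cannot be told apart. The recombinase and what drives it are not given in the sources used here. The labels do not say whether replicates came from separate cultures, so the p-values measure the spread between these libraries, which may be technical.

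PRC1 places a single ubiquitin on histone H2A through RING1A or RING1B, and a PCGF protein paired with the RING protein sets which complex forms. Variant complexes carry RYBP or its paralog YAF2, whereas canonical complexes carry a CBX chromodomain protein and a PHC protein. PRC1.1 pairs PCGF1 with KDM2B, whose zinc finger binds unmethylated CpG islands. PRC1.6 pairs PCGF6 with L3MBTL2 and with the DNA-binding subunits MGA, MAX and E2F6, and in embryonic stem cells it is known for keeping meiotic and other germline genes silent.

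Levels are given as CPM (counts per 1000000 counts, with library sizes scaled by the trimmed mean of M-values, TMM), and a gene is called higher or lower at an adjusted p under 0.05 in edgeR. The total count ran from 14668489 to 16504204 per library. The targeted gene, Ogt, was counted 437 and 389 times after 4-OHT and 2963 and 3108 times without it, or 12.9% of the control level. Stem cell markers were present in all 4 libraries, with a summed level over 8 genes of 2139 and 2433 CPM in Ogt iKO and 3899 and 3891 CPM in control. Of these 8, 7 were lower and 0 higher, with a median log2 fold change (Ogt iKO over control) of -0.73. Markers of feeder fibroblasts, 12 of 12 of which were detected, summed to 2779 CPM in Ogt iKO replicate 1, against 845 in Ogt iKO replicate 2 and 995 and 1124 in the controls. Of these 12, 3 were higher (Tagln, Acta2 and Pdgfrb, in both Ogt iKO libraries) and 0 lower, where 33.2% of all 14525 genes tested were higher and 32.0% lower. The count of Tagln is uncertain, since opposite-strand exons cover 67.9% of its exon length and the counted strand is not known. Epcam, which encodes CD326, stood at 284 CPM in Ogt iKO and 327 in control, and Thy1, which encodes CD90, at 25.6 and 8.90 CPM in Ogt iKO replicates 1 and 2 and 15.6 CPM in both controls. Markers of cells resembling the 2-cell embryo, which occur rarely in stem cell cultures, summed to 144 and 151 CPM in Ogt iKO against 36.3 and 25.1 in control. Of the 8 tested, 8 were higher. For primitive endoderm the 7 markers summed to 94.6 and 75.2 CPM against 26.1 and 23.2, with 4 of 7 higher and 0 lower. Most of that sum came from Dab2, at 69.9 and 58.8 CPM in Ogt iKO against 14.2 and 10.7 in control. Gata6, Sox7 and Pdgfra, the last also a feeder marker, were not called. The trophoblast markers summed to 370 and 385 CPM against 129 and 117, with 4 of 6 tested markers higher and 1 lower. These trophoblast markers went both ways: Krt8 and Krt18 rose, from 7.26 to 95.5 and from 19.8 to 241 CPM, Tfap2c fell from 85.2 to 17.6 CPM, Cdx2 was not called, and Elf5 never passed 3 counts. In such bulk libraries, fewer cells of a type and less RNA per cell cannot be told apart, and the part of these cell types in the results below was not tested except where a value is given.

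In the Ogt iKO libraries E2f6 rose, and Ring1, Rybp and Pcgf6 fell to between 57.5% and 63.8% of control. Rnf2, Kdm2b and Mga fell slightly, to between 84.5% and 86.6% of control, and Pcgf1, Max and L3mbtl2 did not pass the threshold. Thus 1 of the 10 genes was higher and 6 were lower, where 33.2% of all 14525 genes tested were higher and 32.0% were lower. The share called in either direction, 7 of 10, was near the 65.3% called over all genes. The groups did not overlap for 9 of the 10 genes, against 83.2% of all genes tested. The median log2 fold change of the 10 genes was -0.24, against 0.024 over all genes tested, and their median absolute log2 change of 0.32 was below the 0.48 of all genes.

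**Figure D1:**
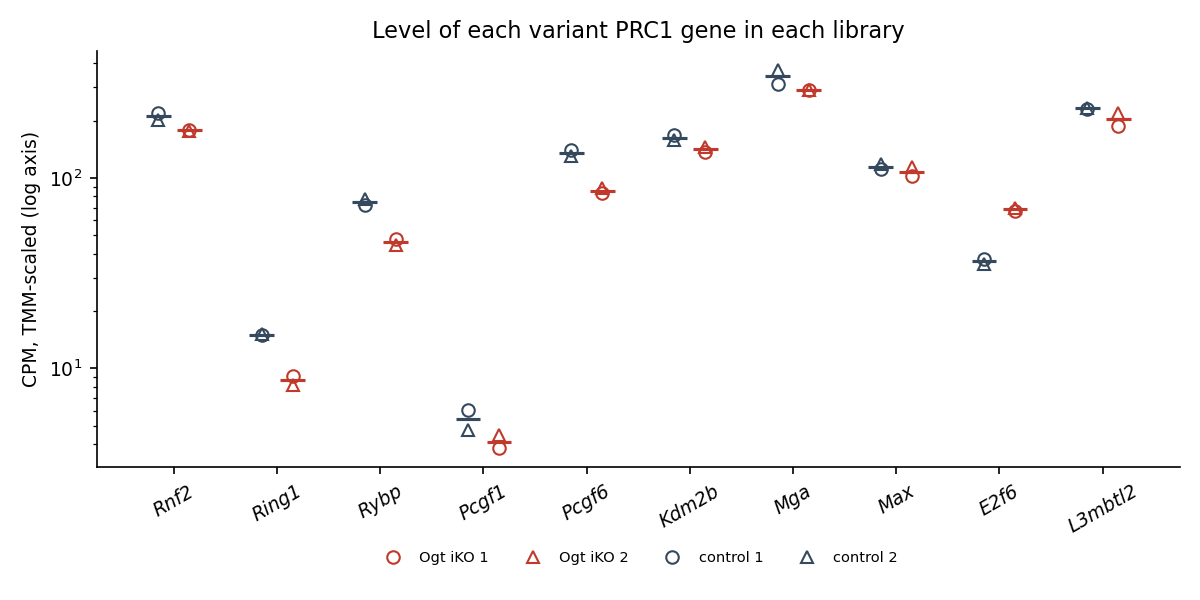
TMM-scaled CPM of the 10 variant PRC1 genes (logarithmic vertical axis) in each library; dark symbols are controls, red symbols Ogt iKO, circles replicate 1, triangles replicate 2, and short lines the group means. E2f6 lies higher in both Ogt iKO libraries (67.0 and 69.8 CPM) than in both controls (37.7 and 35.2 CPM), Ring1, Rybp and Pcgf6 lie lower, and the Max libraries overlap.

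Small falls depended on how the libraries were scaled. With libraries scaled by their totals alone, the median over all genes moved by 0.17 on the log2 scale, from 0.024 to 0.19, and the falls of Rnf2, Kdm2b and Mga were no longer called. The median of the 10 genes was then -0.069. On that scale 1 of the 10 genes was higher (42.1% of all genes tested) and 3 were lower (22.6% of all genes tested). The rise of E2f6 and the falls of Ring1, Rybp and Pcgf6 were called in 12 of 12 settings. Gene positions below are those of RefSeq on GRCm38.p6.

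**Figure D2:**
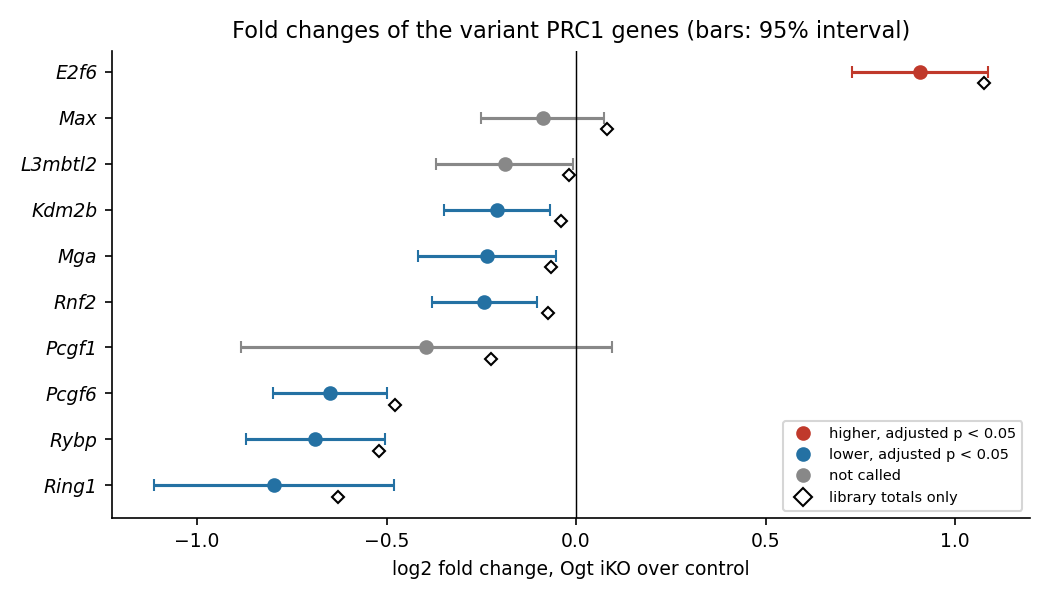
Log2 fold change of each of the 10 genes, Ogt iKO over control (circles, with 95% intervals from edgeR; red higher, blue lower, grey not called), and the same fold change with libraries scaled by their totals alone (open diamonds). E2f6 (0.91) stands on the right and Ring1 (-0.80), Rybp (-0.69) and Pcgf6 (-0.65) on the left under both scalings, while the diamonds of Max, L3mbtl2, Kdm2b, Mga and Rnf2 lie near 0.

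Among the catalytic subunits, Rnf2, which encodes RING1B, (chr1:151469398-151500991), had 3388 and 3099 counts in control and 3063 and 2741 after 4-OHT. Control libraries stood at 210 CPM ± 11.9 (SD, n = 2) and treated ones at 178 CPM ± 1.73 (SD, n = 2), a log2 fold change of -0.24 (SE 0.061, edgeR adjusted p 0.00731). Both treated libraries lay below both controls, but the call was lost without control replicate 1 (adjusted p 0.0551, edgeR). Ring1, which encodes RING1A (chr17:34020792-34024680), was counted 156 and 127 times after 4-OHT and 231 and 233 times without it. The level of Ring1 was 8.66 CPM ± 0.66 (SD, n = 2) against 15.1 CPM ± 0.19 (SD, n = 2), and its log2 fold change was -0.80 (SE 0.14, edgeR adjusted p 0.00111). The log2 ratios of its 4 treated-to-control library pairs lay between -0.89 and -0.71.

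Per kilobase of the exon union, Rnf2 had the highest level of the 10 genes in both groups, at 51.0 CPM per kb ± 2.89 (SD, n = 2) in control. Ring1 stood ninth in the order, at 4.64 CPM per kb ± 0.058 (SD, n = 2). Of the summed per-kb level of this pair of paralogs, Rnf2 supplied 92.0% and 91.3% in the controls and 93.9% and 94.4% in the Ogt iKO libraries. The Rnf2 share was thus higher in both treated libraries, by 2.53 percentage points. An exact two-sided permutation test over 2 against 2 libraries cannot give a p below 0.33, which was its value here (n = 2 per group).

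Rybp, the adaptor that marks variant PRC1 and stimulates its ligase activity (chr6:100228565-100287358), had 821 and 691 counts in Ogt iKO and 1110 and 1188 in control. Both treated libraries lay below both controls, at 46.3 CPM ± 2.46 (SD, n = 2) where the controls held 74.6 CPM ± 4.05 (SD, n = 2), with a log2 fold change of -0.69 (SE 0.080, edgeR adjusted p 1.176e-04). Yaf2, which takes the place of RYBP in other variant complexes, moved the other way, from 283 and 256 counts in control to 462 and 367 in Ogt iKO (log2 fold change 0.54, SE 0.11, edgeR adjusted p 0.00309). Yaf2 was singled out after its values were seen. Of the summed per-kb level of Rybp and Yaf2, Rybp supplied 60.8% and 64.7% in control and 41.3% and 42.7% in Ogt iKO. On raw counts Rybp stood above Yaf2 in all 4 libraries, with 79.7% and 82.3% in control and 64.0% and 65.3% in Ogt iKO, so the Rybp share was lower in Ogt iKO on both scales but the order of the paralogs changed only per length. For the per-kb share the exact two-sided permutation p was 0.33 (n = 2 per group).

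The PCGF genes of the variant complexes differed in abundance. Pcgf1, the PRC1.1 subunit (chr6:83077552-83080855), had few reads, with 65 and 69 counts in Ogt iKO and 94 and 73 in control. It reached 4.13 CPM ± 0.46 (SD, n = 2) against 5.42 CPM ± 0.93 (SD, n = 2), and the 95% interval of its log2 fold change ran from -0.88 to 0.094 (edgeR adjusted p 0.135). A fall of the size seen for Pcgf6 lies inside that interval, so this depth does not show whether Pcgf1 differed from it. Pcgf6, the PRC1.6 subunit (chr19:47033617-47050939), had 1426 and 1372 counts in Ogt iKO and 2159 and 1990 in control. Pcgf6 fell in both treated libraries, to 85.9 CPM ± 3.56 (SD, n = 2) where the controls held 135 CPM ± 6.90 (SD, n = 2), a log2 fold change of -0.65 (SE 0.066, edgeR adjusted p 5.563e-05).

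Over the 6 PCGF genes together, Pcgf6 supplied 35.9% and 34.7% of the summed per-kb level in control and 22.1% and 23.1% in Ogt iKO. Pcgf2, which encodes the canonical subunit MEL18, held 36.4% and 37.7% in control and 38.6% and 39.8% in Ogt iKO. Per kb of the exon union, Pcgf2 and Pcgf6 were thus the most abundant of the 6 in the controls, and in Ogt iKO Pcgf2 stood above the others. Bmi1, the other canonical PCGF gene, went from 5.68% and 5.85% to 12.9% and 11.5%. Pcgf3, a subunit of PRC1.3, went from 15.1% and 15.9% to 20.6% and 19.5%. Pcgf1 and Pcgf5 each held under 5% in all 4 libraries. For Pcgf6 the shares of the groups did not overlap and differed by -12.7 percentage points, with an exact two-sided permutation p of 0.33 (n = 2 per group). The order of the PCGF genes depended on the scale. On raw counts Pcgf6 (35.4% and 34.0%) and Pcgf3 (28.3% and 29.6%) led in control, and Pcgf3 (36.8% and 35.3%) led in Ogt iKO. Behind these shares, the log2 fold changes were 1.08 for Bmi1, 0.37 for Pcgf3 and 0.39 for Pcgf5 (edgeR adjusted p 2.866e-05, 6.477e-04 and 0.00938). Pcgf2 had a value of 0.079 (edgeR adjusted p 0.274), which became a call at 0.25 when libraries were scaled by their totals. The call of Pcgf5 was lost without control replicate 2 (0.31, edgeR adjusted p 0.0758) and in DESeq2 (0.36, adjusted p 0.0807).

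**Figure D3:**
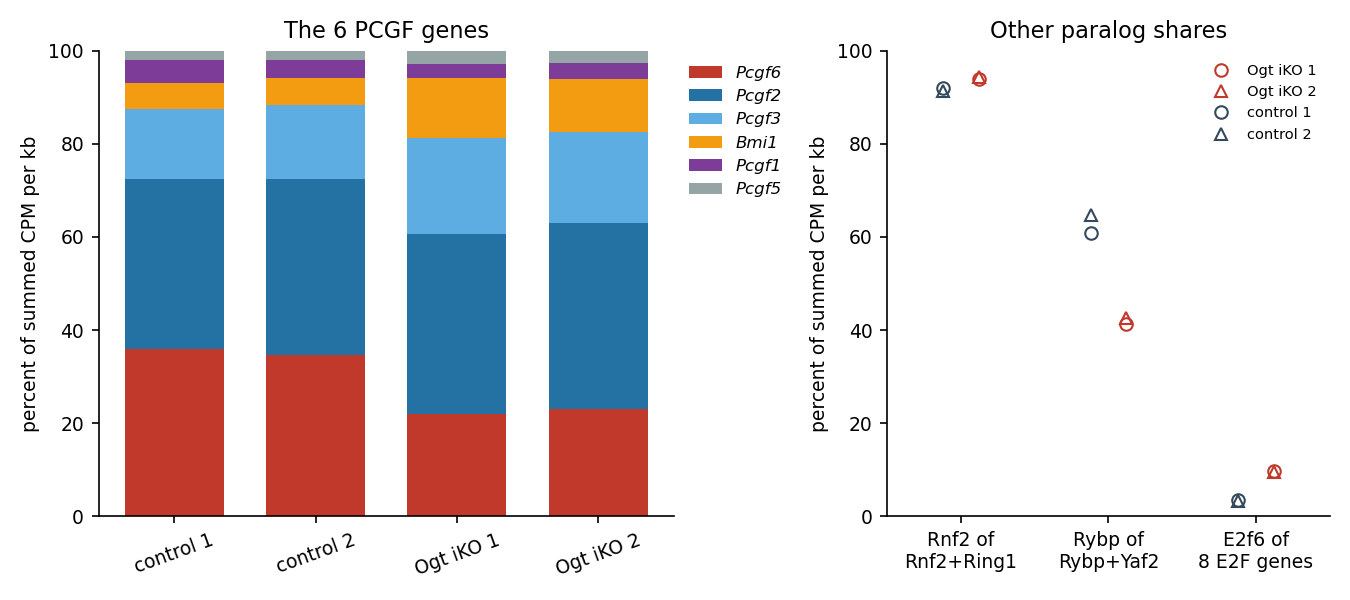
Left, percent of the summed CPM per kb of exon supplied by each of the 6 PCGF genes, with a stacked bar for each library; right, the share of Rnf2, Rybp and E2f6 among their paralogs in each library (dark controls, red Ogt iKO, circles replicate 1, triangles replicate 2). Pcgf6 takes 35.9% and 34.7% in the controls and 22.1% and 23.1% in Ogt iKO, and the Rybp share drops from above 60% to below 43%.

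Kdm2b, the CpG island reader of PRC1.1 (chr5:122870664-122989270), had 2344 and 2257 counts in Ogt iKO and 2598 and 2433 in control. It stood at 141 CPM ± 5.94 (SD, n = 2) against 163 CPM ± 6.54 (SD, n = 2), a log2 fold change of -0.21 (SE 0.062, edgeR adjusted p 0.0162). The libraries of the groups did not overlap, but the fall was small and was not called without Ogt iKO replicate 1 (-0.16) or without control replicate 1 (-0.17).

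Among the DNA-binding subunits of PRC1.6, E2f6, which encodes a repressive E2F protein without an activation domain (chr12:16810909-16826752), had 1145 and 1082 counts in Ogt iKO and 583 and 540 in control. E2f6 rose to 68.4 CPM ± 1.97 (SD, n = 2) where the controls held 36.4 CPM ± 1.74 (SD, n = 2), or to 188% of control (log2 fold change 0.91, SE 0.079, edgeR adjusted p 2.484e-05). Both treated libraries lay above both controls, and the log2 fold change was 0.94 without Ogt iKO replicate 1, the library with the highest feeder marker sum. The part of feeder RNA in this rise was not tested. A rise of at least this size was seen for 17.1% of all genes tested. Mga, whose product carries both a T-box and a basic helix-loop-helix domain (chr2:119872503-119970129), had 4963 and 4518 counts in Ogt iKO and 4850 and 5687 in control. For Mga the treated libraries agreed closely, at 290 and 291 CPM, while the controls stood apart at 313 and 371 CPM. Its log2 fold change of -0.23 (SE 0.079, edgeR adjusted p 0.0287) dropped to -0.12 and was not called without control replicate 2.

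Max, the helix-loop-helix partner that MGA shares with the MYC and MXD proteins (chr12:76937269-76962323), had 1746 and 1762 counts in Ogt iKO and 1719 and 1813 in control. It stood at 108 CPM ± 8.11 (SD, n = 2) against 115 CPM ± 5.04 (SD, n = 2), and the groups overlapped. The 95% interval of its log2 fold change, -0.25 to 0.074 (edgeR adjusted p 0.302), included 0, and the sign flipped to 0.080 with libraries scaled by their totals. Without Ogt iKO replicate 2 the value was -0.19 with an edgeR adjusted p of 0.0496. L3mbtl2, whose product reads chromatin through MBT repeats (chr15:81663889-81688315), had 3194 and 3421 counts in Ogt iKO and 3565 and 3583 in control. The treated libraries differed, at 187 and 221 CPM, below controls of 230 and 234 CPM. Its log2 fold change of -0.19 (SE 0.079, edgeR adjusted p 0.0632) was -0.067 without Ogt iKO replicate 1 and -0.34 without Ogt iKO replicate 2, where it was called, so a single library decided this value. It was also called by DESeq2 (-0.21, adjusted p 0.0449). With the replicate number as a block the value was -0.19 (edgeR adjusted p 0.0298), and with a robust estimate of the spread it was again -0.19 (edgeR adjusted p 0.0399). An exon of Chadl on the opposite strand covers 17.2% of the exon length of L3mbtl2, and the strand that was counted is not given in the sources used here, so its count is uncertain.

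Ordered by level per kilobase of exon, the controls ran from Rnf2 (51.0 CPM per kb) through L3mbtl2 (39.02), Max (31.9), Pcgf6 (26.8), Mga (22.3), Rybp (15.7), Kdm2b (15.0), E2f6 (6.43) and Ring1 (4.64) to Pcgf1 (3.28). Of these neighbours, Rybp and Kdm2b overlapped between libraries. In Ogt iKO, Mga (18.96) stood above Pcgf6 (17.1), and Rybp (9.76) stood below both Kdm2b (13.0) and E2f6 (12.1), with the libraries of those pairs separate in Ogt iKO. There L3mbtl2 and Max overlapped, as did Ring1 and Pcgf1. Several of these positions rested on the length used. Divided by the longest transcript in place of the exon union, Max stood above L3mbtl2 and Kdm2b above Mga and Rybp in both groups. Pcgf6 then stayed above Mga in both groups (47.5 against 24.6 CPM per kb in control, 30.3 against 20.9 in Ogt iKO), while E2f6 stood above Mga in Ogt iKO alone. Pcgf1 stood above Ring1 in Ogt iKO, and their means were level in control (5.90 CPM per kb each). Rnf2 and Max were nearly level in Ogt iKO (55.6 and 55.5 CPM per kb). The exchange of Rybp and E2f6 between the groups was found with either length.

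The other subunits of PRC1 were read from a list of 34 genes, all tested, of which 13 were higher and 13 were lower, against 33.2% and 32.0% of all genes. Scaling by library totals gave 18 higher and 8 lower. Of the 9 other PRC1.6 genes 1 was higher (Yaf2) and 6 were lower (3 and 4 under library totals), and their median was -0.22 (-0.047 under library totals). Cbx3, which encodes the HP1 gamma chromodomain protein, fell from 44.4 to 26.3 CPM (log2 fold change -0.76, SE 0.079, edgeR adjusted p 6.49e-05). Of the 4 other PRC1.1 genes 2 were higher and 2 lower (2 and 1 under library totals). Bcorl1, a paralog of the BCOR scaffold of PRC1.1, rose from 259 and 255 counts to 597 and 422 (log2 fold change 0.90, SE 0.13, edgeR adjusted p 3.814e-04). The 9 genes of PRC1.3 and PRC1.5 had 3 higher and 3 lower (5 and 2 under library totals), with a median of 0.066. That median was 0.24 under library totals and ran from 0.0086 to 0.10 with a library left out.

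Among canonical PRC1 genes more rose than fell. Of 12 genes 7 were higher and 2 were lower, against 33.2% and 32.0% of all genes. Their median was 0.78, against 0.024 over all genes, and it was 0.75 without Ogt iKO replicate 1. Cbx8 rose from 7 and 17 counts to 62 and 45 (log2 fold change 2.06, SE 0.38, edgeR adjusted p 0.00151), with values from 1.55 to 2.82 when a library was left out. Scml2, which encodes a sex comb on midleg-like protein, rose by 1.76, and Bmi1 by 1.08. The lower genes, named after their values were seen, were Phc1, the most abundant polyhomeotic gene of these cells by count (12237 and 13091 counts in control, 8229 and 8580 in Ogt iKO; log2 fold change -0.67), and Cbx6 (-0.32, or -0.15 and not called under library totals). Phc2 and Phc3 rose by 0.94 and 1.05.

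**Figure D4:**
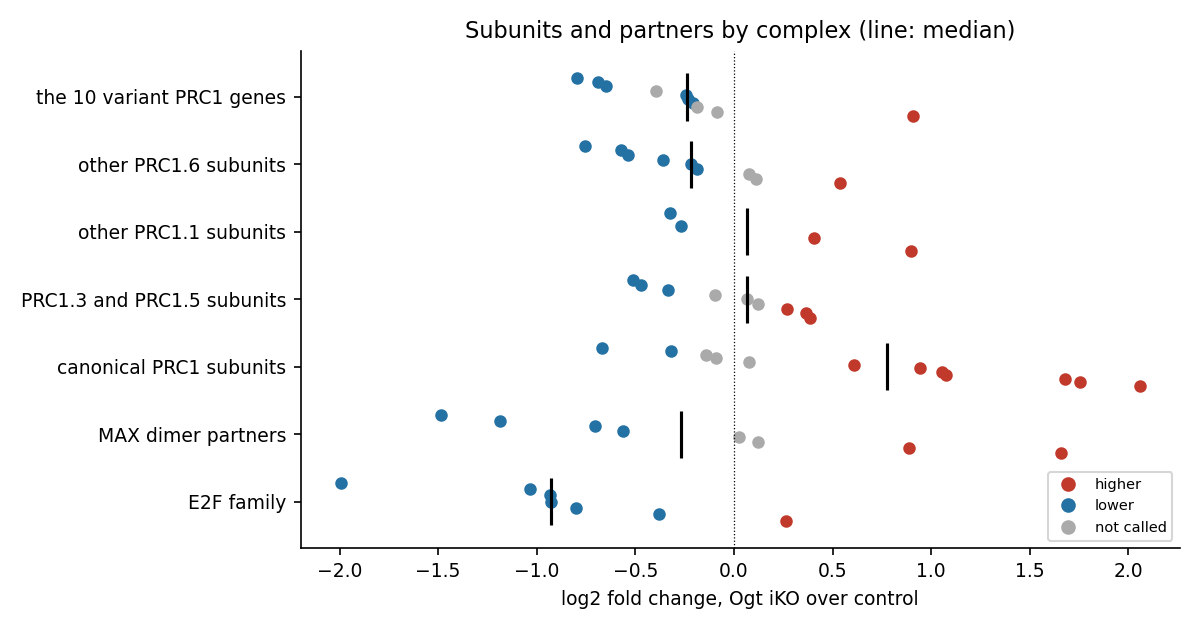
Log2 fold change, Ogt iKO over control, of each tested gene by complex or family (red higher, blue lower, grey not called in edgeR; black lines are medians). The canonical PRC1 genes have a median of 0.78, the 10 variant PRC1 genes of -0.24, and the E2F genes other than E2f6 of -0.93.

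Other E2F family genes, and the genes of other dimer partners of MAX, were read next. Of 7 E2F family genes other than E2f6, 6 were lower and 1 was higher, against 32.0% lower and 33.2% higher over all genes, and their median was -0.93. Under library totals 5 were lower, E2f1, named after its values were seen, no longer being called (-0.21). E2f8, an atypical repressor, fell most (-1.99, SE 0.077, edgeR adjusted p 7.24e-07), although an exon of Gm2788 on the opposite strand covers 11.2% of its exon length. The values were -1.04 for E2f2, -0.93 for E2f7 and -0.93 for E2f3. The higher gene, E2f5, named after its values were seen, had a log2 fold change of 0.26 and lost its call in DESeq2 and without Ogt iKO replicate 1, control replicate 1 or control replicate 2 in turn (0.24 to 0.27 over the fits with a library left out). E2f6 supplied 3.48% and 3.19% of the summed per-kb level of the 8 E2F genes in control and 9.73% and 9.55% in Ogt iKO, and the shares did not overlap (exact two-sided permutation p 0.33, n = 2 per group).

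Among 8 dimer partners of MAX outside PRC1.6, 2 were higher and 4 were lower, against 33.2% and 32.0% of all genes. Under library totals the counts were again 2 and 4, against 42.1% and 22.6% of all genes. Mycn, which encodes a growth-promoting MYC protein, fell from 195 to 85.4 CPM (log2 fold change -1.19, SE 0.071, edgeR adjusted p 4.345e-06), and Mycl rose from 38.2 to 70.7 CPM (0.89). Of the MXD repressors, Mxd3 fell (-1.49) and Mxd4 rose (1.66). The 4 values of Max itself lay between 102 and 118 CPM.

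Germline genes known as targets of PRC1.6 were taken from a list of 24, of which 23 were tested. Meiob, with 1 to 10 counts in a library, was not. Of the 23, 12 were higher, 4 were lower and 7 were not called, against 33.2% higher and 32.0% lower over all genes, and the median log2 fold change was 0.31. Slc25a31, a testis-specific ADP/ATP carrier, rose from 119 and 78 counts to 1141 and 872 (log2 fold change 3.27, SE 0.17, edgeR adjusted p 2.093e-06). Taf7l, a germ cell TFIID subunit, rose by 3.25 and Dazl, an RNA-binding regulator of germ cells, by 2.84. Stra8, the retinoic acid-responsive gene of meiotic entry, rose from 3030 and 2873 counts to 9013 and 7691 (log2 fold change 1.42, SE 0.061, edgeR adjusted p 1.013e-06). Zcwpw1, a histone methylation reader of meiotic recombination, rose by 1.26 and Tex15, a germ cell transposon silencing gene, by 1.23. The 4 lower genes, named after their values were seen, were Tex11 (-1.36), Tuba3a (-1.31), Sycp3 (-1.28) and Ddx4 (-0.26). The call of Ddx4 held in 7 of 12 settings, and its value was -0.088 under library totals. Tuba3a and Tuba3b (1.33) are near-identical copies, between which reads may be split, and an exon of Chpt1 on the opposite strand covers 52.2% of the exon length of Sycp3, so these values are uncertain. The germline genes that rose did so in the libraries with the higher sums of 2-cell-like markers given above, whose part in this result was not tested. The median was 0.35 without Ogt iKO replicate 1 and 0.18 without control replicate 2. Under library totals 13 were higher and 3 lower, against 42.1% and 22.6% of all genes tested. DESeq2 gave 9 higher and 3 lower, for which no share over all genes is given here.

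Promoters were then read for the sequences that PRC1.6 is known to bind: the E-box CACGTG of MGA-MAX, the E2F site (GCGGGAA or its complement TTCCCGC) and the T-box site AGGTGTGA. The windows span 250 bases before to 50 bases after each start listed for a gene in the RefSeq promoter set on GRCm38.p6. Some genes have several such starts, and a start can lie inside the gene position printed above. For Mga the window is chr2:119896978-119897277, so an absent site refers to that start alone. Both strands were covered, and no matches overlapped in the genes named here. A promoter was found for 20 of the 24 germline genes, and 11 of them held the E-box (55.0%), 9 the E2F site (45.0%) and 1 the T-box site (5.0%). Over all 27025 genes of the promoter table these shares were 8.09%, 5.29% and 1.48%, and over the 11446 genes tested that had a promoter they were 11.7%, 9.70% and 0.996%. Both the E-box and the E2F site were present in 5 of the 20, against 0.611% of all genes and 1.14% of those tested. Of the 10 variant PRC1 genes, 8 had a promoter, and only Max held an E-box. The E2F and T-box letters were absent from these windows. Rybp and Pcgf1 had no entry. Of the 34 other PRC1 subunits, 28 had a promoter, and 9 of these held the E-box (32.1%) and 3 the E2F site (10.7%). A share of E-boxes above that of the genes tested was thus not confined to the germline list.

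The E-boxes of 8 germline genes and of Max are shown with 10 bases on each side, 5′ to 3′ on the strand of the gene, in capitals, to compare the sites of genes that rose with those of genes that did not. The first 4 belong to genes that rose, Stag3 and Mael were not called, Ddx4 and Sycp3 were lower, and the last is the site of Max. The set was chosen after the values were seen, and the site of Sycp3 is the first of its pair.
Taf7l, chrX:134476524-134476549, minus strand: cctcttatacCACGTGacagaactcg
Slc25a31, chr3:40708768-40708793, plus strand: caactggaaaCACGTGttatggtcac
Sycp1, chr3:102936179-102936204, minus strand: gagaacccggCACGTGggaagggaaa
Stk31, chr6:49395474-49395499, plus strand: gccggccaccCACGTGaccagggctg
Stag3, chr5:138280329-138280354, plus strand: cgctggagccCACGTGacaggactgc
Mael, chr1:166238952-166238977, minus strand: ccaggcctacCACGTGacaatccccg
Ddx4, chr13:112652324-112652349, minus strand: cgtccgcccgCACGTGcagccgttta
Sycp3, chr10:88459513-88459538, plus strand: cgttggctccCACGTGagaacgggca
Max, chr12:76962236-76962261, minus strand: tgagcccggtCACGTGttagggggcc

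The windows of Slc25a31 and Sycp3 are shown whole because these genes share both sites and changed in opposite directions, by 3.27 and -1.28 on the log2 scale. Capitals mark the E-boxes and E2F sites. Sycp3 holds a second E-box and, not in capitals, the T-box site counted above, and its fold change is uncertain because of the overlap with Chpt1. The windows lie at chr3:40708621-40708920 on the plus strand and at chr10:88459337-88459636 on the plus strand.
Slc25a31: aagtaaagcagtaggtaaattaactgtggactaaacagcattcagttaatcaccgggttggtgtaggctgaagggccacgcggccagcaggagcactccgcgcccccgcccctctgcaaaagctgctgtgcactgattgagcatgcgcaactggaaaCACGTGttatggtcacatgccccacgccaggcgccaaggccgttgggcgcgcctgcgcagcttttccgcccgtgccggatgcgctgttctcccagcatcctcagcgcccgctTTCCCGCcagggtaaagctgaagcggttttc
Sycp3: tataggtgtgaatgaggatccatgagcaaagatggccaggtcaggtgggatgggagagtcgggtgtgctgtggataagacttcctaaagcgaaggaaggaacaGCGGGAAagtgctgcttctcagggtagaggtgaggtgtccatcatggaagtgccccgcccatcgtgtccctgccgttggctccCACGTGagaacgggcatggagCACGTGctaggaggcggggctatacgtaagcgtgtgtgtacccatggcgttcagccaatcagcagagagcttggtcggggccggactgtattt

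Of the 11 germline genes with an E-box, 6 were higher, 2 were lower and 3 were not called. Of the 9 with an E2F site, 4 were higher, 3 were lower and 2 were not called. The 5 with neither site were Dazl, Stra8 and Zcwpw1, which rose, and Tdrkh and Tex101, which were not called. The count of Tdrkh is uncertain, since an exon of Oaz3 on the opposite strand covers 36.7% of its exon length. Over all tested genes with a promoter, 31.7% of the 1335 with an E-box were higher and 33.4% lower, and 28.9% of the 1110 with an E2F site were higher and 37.8% lower. Among the 9132 with neither, 33.3% were higher and 32.0% lower. These counts are descriptions of 300-base windows and were given no test.

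**Figure D5:**
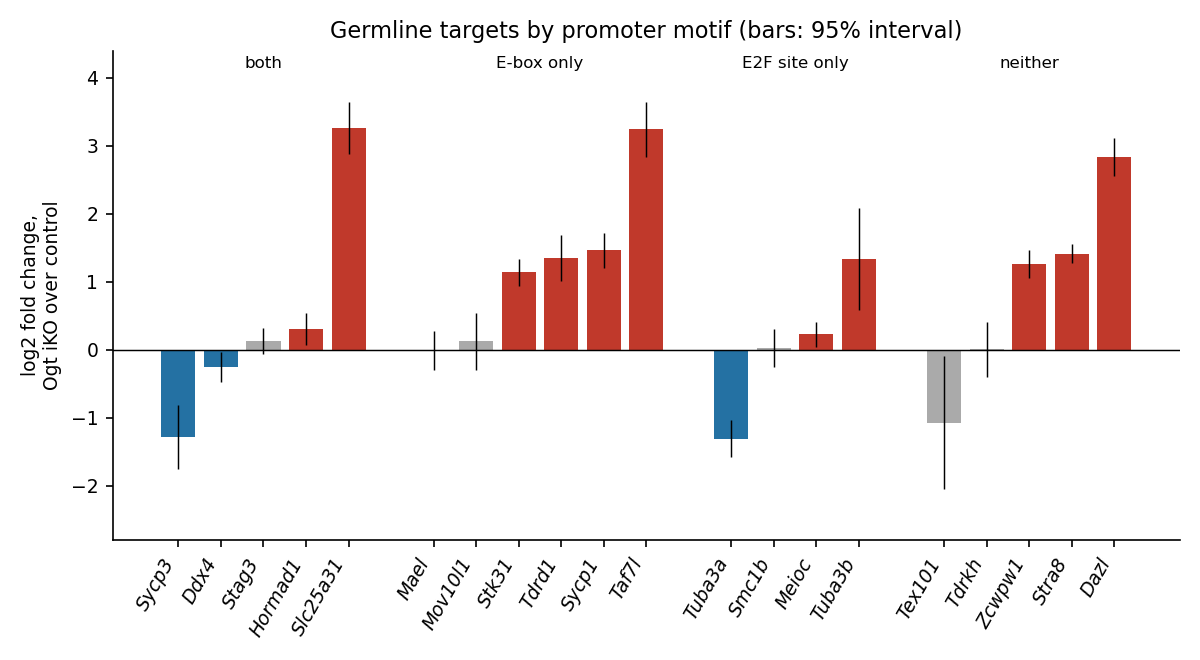
Log2 fold change, Ogt iKO over control, of the 20 germline genes with a promoter, grouped by whether the window holds both the E-box and the E2F site, either alone, or neither (bars from 0; lines are 95% intervals from edgeR; red higher, blue lower, grey not called). Genes that rose occur in each of the 4 groups, from Slc25a31 (3.27) with both sites to Dazl (2.84) with neither.

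Developmental regulators known as Polycomb targets in stem cells formed the last list, of 16 genes, of which 14 were tested. Of these 7 were higher and 4 were lower (33.2% and 32.0% over all genes). The median log2 fold change was 1.06, or 0.77 without Ogt iKO replicate 1 and 0.68 without control replicate 2. DESeq2 gave 5 higher and 4 lower, for which no share over all genes is given here. Foxa2, an endoderm factor, rose from 6 and 4 counts to 33 and 34 (log2 fold change 2.64, SE 0.38, edgeR adjusted p 3.67e-04). Pax3, a neural crest and muscle factor, rose by 1.72 and Eomes, a mesendoderm and trophoblast factor, by 1.23. Pax6, a neural and eye factor, fell from 239 and 221 counts to 73 and 57 (log2 fold change -1.91, SE 0.17, edgeR adjusted p 2.622e-05). The other lower genes, named after their values were seen, were Lhx5 (-2.40), Zic1 (-1.36) and Olig2 (-1.10). Not all genes of the list were silent in control, where Olig2 had 675 and 778 counts. This list and the marker lists above hold in part the same genes, named here for that reason alone. Foxa2, Gata4, Gata6 and Sox17 are also primitive endoderm markers, and Eomes, Cdx2 and Hand1 are also trophoblast markers. The primitive endoderm sum, higher in the same libraries, is thus no separate observation for these genes. The trophoblast markers went both ways, and the part of those cell types was not tested.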

How the data were processed

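The labels describe 4 libraries from a stranded mRNA kit. The authors deposited raw counts per gene symbol for each library, with 0 rows that name no gene. STAR, Picard and the build mm10 are named per the submitters' processing notes, while versions, annotation, counted strand and the handling of reads at several loci are not given in the sources used here.

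The test was the quasi-likelihood test of edgeR 4.0.16, run in R 4.3.3 (TMM, filterByExpr, no covariate), in a fit of all genes and 4 libraries with Benjamini-Hochberg adjustment over the 14525 genes tested, after a test on simulated data. Standard errors come from the fold change and its F statistic. Exon lengths came from GENCODE vM21 (GRCm38, the assembly of mm10) for 24366 symbols and promoters from RefSeq GRCm38.p6. A count of 0 allows up to 3 counts, for counting error only. With libraries scaled by their totals alone, without TMM, this is 0.182 to 0.205 CPM. Replicates of a group differed by more than sampling noise (chi-square per degree of freedom 7.04 and 4.25).

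Named are the 10 genes, Ogt, called subunits and partners with a log2 change of at least 0.75 (up to 4 per role), PCGF paralogs, and the 6 germline and 4 Polycomb targets with the smallest adjusted p. Other names are marked, and 1 gene that the rule names is not reported here. Genes and lists were chosen with earlier results of these data known. Alternatives were RLE factors, library totals, DESeq2 1.42.0, 2 other filters, a robust spread, the replicate block and leaving out each library. The Rybp and E2f6 shares were added after seeing the data.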

Additional observations from a re-analysis of the deposited data

How the results depend on the processing

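The rise of E2f6 (0.85 to 1.08 on the log2 scale over 11 alternatives) and the falls of Ring1, Rybp and Pcgf6 kept their direction and call throughout. With libraries scaled by their totals, 3 of the 10 genes were lower in place of 6, and the value of Max turned to 0.080. The cause was not tested beyond the shift of all genes by 0.17. With a library left out, the median of the 10 genes lay between -0.31 and -0.21. DESeq2 and the robust spread each gave 7 lower. Shares over all genes are given here for the main fit and library totals only, so counts from other fits have no such share beside them. The list of canonical genes had 1 lower in place of 2 under library totals, and its median was 0.67 without control replicate 2. For the E2F genes other than E2f6, 0 in place of 1 were higher in DESeq2 and in 3 of the fits with a library left out. On raw counts in place of per-kb levels, the Rnf2 share differed by 2.05 percentage points in place of 2.53. For the other shares the raw-count differences were -0.37 for Pcgf1, 0.55 for Pcgf2, 7.11 for Pcgf3, 4.64 for Bmi1, 1.32 for Pcgf5, -13.3 for Pcgf6, -16.3 for Rybp and 10.95 for E2f6, all in the same direction as per kb. The longer E2F site (GCGGGAAA or TTTCCCGC) was found in 3 germline promoters in place of 9. With the replicate number as a block, 1 of the 10 genes was higher and 7 lower, the addition being L3mbtl2 (-0.19). The numbers share no stated culture or day, and differences between replicates 1 and 2 correlated at 0.086 between groups. Depth limits Pcgf1 most, at 65 to 94 counts.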
